A study of Mus musculus with 8 samples.

Results

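The genes described here carry the signal of thyrotropin (TSH) into the thyrocyte through cyclic AMP. They are Tshr, Gnas, Adcy3, Adcy6, Adcy9, Prkaca, Prkar1a, Pde4d, Pde8b and Creb1, a list given by gene name, and every probe that carried 1 of these names on the array was taken. All 10 genes were found, with 22 of the 55681 probes for mouse transcripts. Gene expression was measured in thyroids of female Balb/c mice, 8 weeks old, on 8 one-colour Agilent arrays, 1 for each thyroid. The 4 exposed mice (S539, S588, S589 and S590) had received 99mTcO4-, the pertechnetate ion of a technetium isotope, which thyrocytes take up through the iodide transporter. The study describes the isotope as an emitter of low-energy electrons and attributes its effect on the thyroid to them. The absorbed dose to the thyroid was 30 Gy, and RNA was taken 24 hours later. The 4 control mice (arrays 1 to 4) received no radioisotope, and the study describes them in one place as untreated and in another as given saline. No genetic modification is named for either group.

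TSH from the pituitary binds its receptor on the basolateral membrane of the thyrocyte, the receptor activates the stimulatory G protein, and adenylyl cyclases then make cyclic AMP. Cyclic AMP releases the catalytic subunits of protein kinase A from their regulatory subunits, phosphodiesterases degrade it, and the kinase phosphorylates the transcription factor CREB. Through this route TSH is known to maintain iodide uptake, hormone synthesis and growth of the gland, and the iodide transporter is among the genes it keeps expressed.

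None of the 10 genes differed between exposed and control thyroids past the threshold. Of the 22 probes, 0 had an adjusted p under 0.05 in limma (Benjamini-Hochberg over all probes), where 0.781% of all probes passed. The methods' t-test also called 0 of them. Before adjustment, 1 of the 22 had a p under 0.05 in limma and 1 in the methods' t-test, beside 12.2% of all probes in limma. On 0 of the 22 probes did all 4 exposed arrays lie on one side of all 4 control arrays, where the groups were apart for 9.11% of all probes. In the direction of the mean, 9 probes were higher and 13 lower in the exposed thyroids, and the median difference was -0.03 on the log2 scale beside 0.01 over all probes. The median size of the difference, without its sign, was 0.17 for the 22 probes and 0.28 for all probes. Each array stands for 1 mouse, so these p-values set the difference between groups against the spread between mice. The 4 arrays a group limit how small a difference can be seen. Given the error of each probe and the p at which the threshold lay, a difference had to reach between 0.71 for the steadiest probe (Adcy9) and 4.29 for the most variable (Creb1 from base 261) to pass, with 1.03 for the brightest Gnas probe and 1.77 for the brighter Tshr probe. Smaller measured differences could not pass in this fit, so true differences below these sizes may have been missed.

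**Figure D1:**
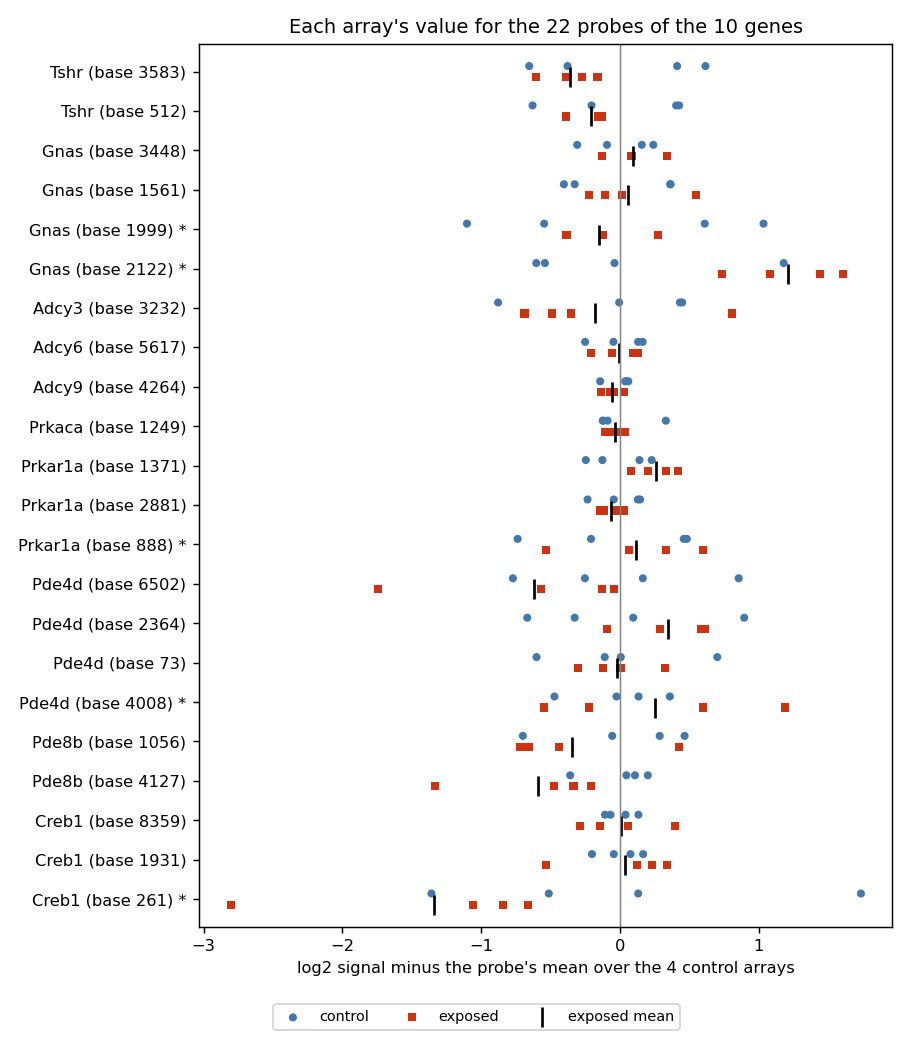
Log2 signal of each array minus the probe's own mean over the 4 control arrays (x axis) for the 22 probes (y axis, named by gene and by the base of the transcript where the probe starts). Circles are control and squares exposed thyroids, the black tick is the exposed mean, and an asterisk marks a probe that was not well above background on all 8 arrays; in no row do the squares and circles separate completely.

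The tissue carried the defining markers of thyrocytes. Of the thyrocyte markers, Tg, Pax8, Nkx2-1, Foxe1, Hhex and Duox2 were well above background on all 8 arrays and Slc26a4 on 5, and none of those named passed the test. Markers of neighbouring tissue and of other cells were present as well. On all arrays, 6 of 6 skeletal muscle markers and the parathyroid hormone gene Pth were well above background. So were the adipocyte markers Adipoq, Plin1, Cidec, Fabp4 and Ucp1 and the C cell markers Calca and Chga, but not Lep or Calcb. The thymocyte and T cell score, the mean of 6 markers each centred over the 8 arrays, was 3.80 on control array 1 and 2.73 on control array 2, and between -1.34 and -0.02 on the other 6 arrays. Well above background were 60.5% to 75.01% of the spots on control and 70.9% to 77.3% on exposed arrays, and no spot was saturated. All arrays lay on 1 slide in 1 scan, the exposed ones in its first row and the controls in its second, so position and exposure cannot be told apart.

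The TSH receptor itself, Tshr, was read by 2 probes of the RefSeq transcript NM_011648. Their first 30 of 60 bases are shown, 5′ to 3′, because they tell which piece of the receptor message each value stands for, and all letters are in lower case since no part of a probe is singled out. The first lies near the end of the transcript (mm9 chr12:92778221-92778280, plus strand). The second spans 2436 bases of the genome (mm9 chr12:92743738-92746173, plus strand), so that it crosses at least 1 intron. In the array's annotation the first is assigned to 1 RefSeq transcript and the second to 2.
Tshr from base 3583: gagccagatcctaactattcatctaaatta
Tshr from base 512: ttccctgacttgaccaaaatttattccacg

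The Tshr probe from base 3583 had log2 signals of 10.13, 11.40, 11.20 and 10.41 on control arrays 1 to 4 and 10.18, 10.51, 10.39 and 10.62 on arrays S539, S588, S589 and S590. Control arrays 2 and 3 were the highest of all 8 and control array 1 the lowest, so the exposed arrays lay inside the control range. The means were 10.78 ± 0.61 in control and 10.43 ± 0.19 in exposed thyroids (SD, n = 4 each), a difference of -0.36 (95% confidence interval -1.05 to 0.34, adjusted p = 0.651), and the two-sided exact permutation p over arrays was 0.371. The interval reached from a level 0.482 times that of the controls to 1.26 times. On the probe from base 512 the log2 signals were 6.32, 7.38, 7.36 and 6.75 on control arrays 1 to 4 and 6.81, 6.80, 6.82 and 6.56 on arrays S539, S588, S589 and S590. Here too control arrays 2 and 3 were the highest and control array 1 the lowest, and the difference was -0.21 (95% confidence interval -0.79 to 0.38, adjusted p = 0.764). The 2 probes had a Pearson correlation of 0.87 over the 8 arrays. In bulk RNA of this kind, fewer thyrocytes and less receptor message per thyrocyte cannot be told apart.

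The 2 controls with the highest Tshr signals also had the highest thyrocyte scores. The thyrocyte score was 0.30 and 0.47 on control arrays 2 and 3, -0.08 and -0.03 on control arrays 1 and 4, and between -0.23 and -0.05 on the exposed arrays. The signal of the probe from base 3583 went with this score over the 8 arrays with Pearson's r = 0.84 (exact permutation p = 0.0266, adjusted over 385 such relations p = 0.335) and Spearman's rho = 0.52 (exact permutation p = 0.197, adjusted p = 0.615). Without the 2 arrays farthest from the median score r was -0.13, so the relation rested on those arrays, and within the groups r was 0.92 in controls and 0.11 in exposed thyroids (4 arrays each). Over the 4 controls the same Tshr probe went as closely with other scores, with r = 0.97 for C cell, 0.89 for B cell and -0.89 for cartilage markers, so these values do not single out the thyrocyte score. Among 13766 other genes with a RefSeq probe whose log2 signal averaged 7 or more, the 5 whose values followed this Tshr probe most closely were Elp2 (Pearson's r = 0.982), Rab9 (0.967), Ly6g6e (0.966), Ptpra (0.963) and Elovl7 (0.960), each over 8 arrays. Like Tshr, all 5 were highest on control arrays 2 and 3, and their differences of -0.19, -0.17, -0.31, -0.12 and -0.36 did not pass the test. These 5 were picked for their likeness, so the values are a description.

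Gnas encodes the alpha subunit of the stimulatory G protein that couples the receptor to adenylyl cyclase. The locus is known for several transcripts that start at different promoters and share their last exons, and the array held 4 probes for it. Their first 30 bases are shown because the 4 gave different results and lie at different places of the locus. They are given in the order of their signal, at mm9 chr2:174171933-174171992, plus strand; mm9 chr2:174163501-174163560, plus strand; mm9 chr2:174122337-174122396, plus strand; and mm9 chr2:174125482-174125541, plus strand.
Gnas from base 3448 of NM_010309: taagagtgaaacgtaattgtacaagcagtt
Gnas from base 1561 of NM_019690: ctgcacgtctttcttcctatgactctacaa
Gnas from base 1999 of ENSMUST00000109095: atgggggacattgaagggatttgctggagc
Gnas from base 2122 of NM_201617: acttcttcacccgagccttcggaagctgct

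The probe from base 3448, whose sequence the array file assigns to 4 RefSeq transcripts, had log2 signals of 16.47, 16.93, 17.02 and 16.68 on control arrays 1 to 4 and 17.11, 16.85, 16.86 and 16.65 on arrays S539, S588, S589 and S590. The exposed S539 was the highest array and control array 1 the lowest, and the difference was 0.09 (95% confidence interval -0.31 to 0.50, adjusted p = 0.849). The interval reached from 0.807 to 1.41 times the control level. From base 1561, the next probe had log2 signals of 11.27, 11.96, 11.96 and 11.19 on control arrays 1 to 4 and 12.15, 11.37, 11.61 and 11.49 on arrays S539, S588, S589 and S590. Its highest array was the exposed S539 and its lowest control array 4, with a difference of 0.06 (95% confidence interval -0.55 to 0.66, adjusted p = 0.946). These 2 probes had a Pearson correlation of 0.86 over the 8 arrays.

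The Gnas probe from base 2122 had the lowest unadjusted p of the 22 probes. Its log2 signals were 3.50, 4.72, 2.94 and 3.00 on control arrays 1 to 4 and 5.15, 4.28, 4.98 and 4.62 on arrays S539, S588, S589 and S590. All exposed arrays were above control arrays 1, 3 and 4, and control array 2 lay inside the exposed range. The measured means were 3.54 ± 0.83 in control and 4.76 ± 0.39 in exposed thyroids (SD, n = 4 each), with an adjusted limma p of 0.302 (0.0193 before adjustment) and an exact permutation p of 0.0857. The probe was not well above background on any control array and was on 2 of 4 exposed arrays, and the exposed mean lay below the mean of the lowest signals counted as well above background on the control arrays, so the control level is only a bound and neither a difference nor a fold is given. The Gnas probe from base 1999, in the upstream part of the locus, was well above background on 3 control and 4 exposed arrays. Its log2 signals were 5.67 to 7.81 in controls and 6.39 to 7.04 in exposed thyroids, with a difference of -0.15 (95% confidence interval -1.24 to 0.93, adjusted p = 0.916). The highest values of that probe were on control arrays 1 and 2, the 2 arrays with the high thymocyte score, and without those 2 arrays the difference was 0.67 (adjusted p = 0.380). Its signal went with that score over the 8 arrays with Pearson's r = 0.76 (exact permutation p = 0.0247, adjusted over 385 relations p = 0.335) and Spearman's rho = 0.79 (exact permutation p = 0.0279, adjusted p = 0.504). Without the 2 arrays farthest from the median score r was 0.03, so the relation rested on those arrays, and within the groups it was 0.92 in controls and -0.46 in exposed thyroids. With the score as a covariate the difference was 0.45 (adjusted p = 0.589). Whether thymocytes in the samples bear on it was not tested.

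Adenylyl cyclases make cyclic AMP from ATP, and Adcy3, Adcy6 and Adcy9 encode membrane-bound forms that the G protein stimulates. Each had 1 probe. The Adcy3 probe, from base 3232 of NM_138305 (mm9 chr12:4211535-4211594, plus strand), had log2 signals of 6.58, 7.90, 7.89 and 7.45 on control arrays 1 to 4 and 7.10, 6.96, 8.26 and 6.77 on arrays S539, S588, S589 and S590. The exposed array S589 was the highest of all and the other exposed arrays lay in the lower part of the control range, with a difference of -0.18 (95% confidence interval -1.14 to 0.78, adjusted p = 0.886). The Adcy6 probe, from base 5617 of NM_007405 on chromosome 15, had log2 signals of 12.12, 11.94, 12.15 and 11.74 on control arrays 1 to 4 and 12.12, 11.94, 12.08 and 11.78 on arrays S539, S588, S589 and S590. The exposed arrays lay inside the control range, and the difference was -0.01 (95% confidence interval -0.36 to 0.35, adjusted p = 0.988). The Adcy9 probe, from base 4264 of NM_009624 (mm9 chr16:4287678-4287737, minus strand), had log2 signals of 12.73, 12.93, 12.91 and 12.92 on control arrays 1 to 4 and 12.83, 12.80, 12.90 and 12.74 on arrays S539, S588, S589 and S590. Its difference of -0.06 (95% confidence interval -0.33 to 0.22, adjusted p = 0.876) had the narrowest interval of the 22 probes, from 0.794 to 1.17 times the control level. Control array 1 was low among the controls, and without it the 4 exposed arrays all lay below the other 3. In that setting the groups were apart for 19.3% of all probes.

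Protein kinase A is made of catalytic subunits, of which Prkaca encodes one, held inactive by regulatory subunits, of which Prkar1a encodes one. The Prkaca probe, from base 1249 of NM_008854 (mm9 chr8:86519301-86519360, plus strand), had log2 signals of 8.996, 8.58, 8.54 and 8.54 on control arrays 1 to 4 and 8.65, 8.70, 8.61 and 8.56 on arrays S539, S588, S589 and S590. Control array 1 stood above the other 7 arrays, which lay between 8.54 and 8.70, and the difference was -0.03 (95% confidence interval -0.38 to 0.31, adjusted p = 0.943). Without control array 1 it was 0.08. Prkar1a had 2 probes of NM_021880. Its probe from base 1371 (mm9 chr11:109529011-109529070, plus strand) had log2 signals of 13.70, 13.96, 14.05 and 13.58 on control arrays 1 to 4 and 14.24, 13.90, 14.15 and 14.02 on arrays S539, S588, S589 and S590. S539 and S589 lay above all controls, and S588 below control arrays 2 and 3. The difference was 0.26 (95% confidence interval -0.11 to 0.63, adjusted p = 0.542) with an exact permutation p of 0.143. Downstream, the probe from base 2881 (mm9 chr11:109530521-109530580, plus strand) had log2 signals of 11.11, 11.48, 11.47 and 11.29 on control arrays 1 to 4 and 11.19, 11.37, 11.22 and 11.31 on arrays S539, S588, S589 and S590. Its exposed arrays lay inside the control range, with a difference of -0.07 (95% confidence interval -0.38 to 0.25, adjusted p = 0.871), so the 2 probes of the same transcript had opposite signs, neither past the threshold. Their Pearson correlation over the 8 arrays was 0.10. A Prkar1a probe of an Ensembl transcript, from base 888, was well above background on 3 arrays of each group and had a difference of 0.12 (95% confidence interval -0.69 to 0.93, adjusted p = 0.914).

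**Figure D2:**
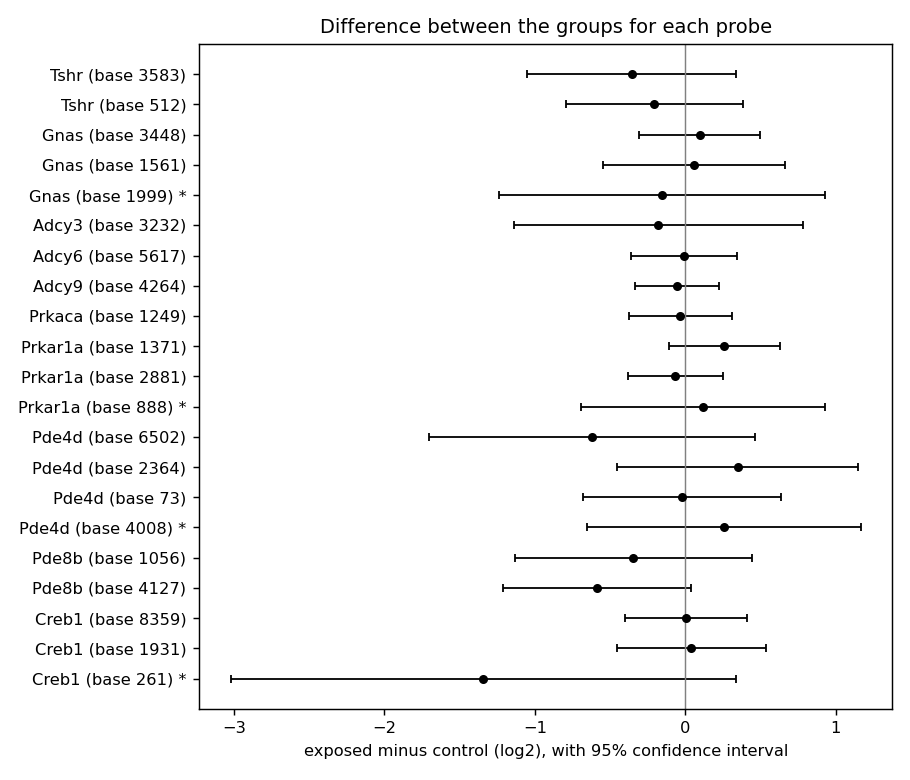
Difference between the means of exposed and control thyroids on the log2 scale (x axis) with its 95% confidence interval from limma, n = 4 per group, for each member probe (y axis) but Gnas from base 2122, which has only a bound in controls. All intervals shown include 0, and an asterisk marks probes not well above background on all 8 arrays.

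The phosphodiesterases Pde4d and Pde8b degrade cyclic AMP and are known to limit its rise after TSH. Pde4d had 4 probes, 2 of them of NM_011056, which gave differences of opposite sign within 1 transcript. The first 30 bases of the probe from base 2364 (mm9 chr13:110741493-110741552, plus strand) are shown to place the one that was higher in the exposed mean.
Pde4d from base 2364: gcggaagaggaaagccagcctgaaacttgc

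The Pde4d probe from base 6502 had log2 signals of 10.05, 9.63, 9.11 and 10.74 on control arrays 1 to 4 and 8.14, 9.84, 9.31 and 9.75 on arrays S539, S588, S589 and S590. S539 was the lowest and control array 4 the highest, and the difference was -0.62 (95% confidence interval -1.71 to 0.46, adjusted p = 0.616). Upstream of it, the probe from base 2364 had log2 signals of 10.14, 8.92, 8.58 and 9.34 on control arrays 1 to 4 and 9.15, 9.86, 9.83 and 9.54 on arrays S539, S588, S589 and S590. Control array 1 was the highest and control array 3 the lowest here, so the exposed arrays lay inside the control range, and the difference was 0.35 (95% confidence interval -0.45 to 1.15, adjusted p = 0.704). The correlation of the 2 probes over the 8 arrays was 0.37. The remaining 2 Pde4d probes, of the mRNAs AF038896 and AK032648, had differences of -0.02 (95% confidence interval -0.68 to 0.63, adjusted p = 0.980) and 0.26 (-0.65 to 1.17, adjusted p = 0.813), and the second was well above background on 1 control and 2 exposed arrays.

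The values of the Pde4d probe from base 6502 followed those of skeletal muscle markers, a relation looked at after the values had been seen. The muscle score, the mean of the centred log2 signals of Ckm, Acta1, Myh4, Tnnt3, Mylpf and Actn3, was 0.76, 0.23, -0.45 and 1.22 on control arrays 1 to 4 and -1.46, 0.10, -1.08 and 0.67 on arrays S539, S588, S589 and S590. All 6 markers were lower in the exposed mean, by 0.12 to 1.16 on the log2 scale, and 0 of 6 passed the test. Pearson's r between the score and the probe was 0.91 (exact permutation p = 0.000694, adjusted over 385 relations p = 0.0891) and Spearman's rho 0.90 (exact permutation p = 0.00456, adjusted p = 0.293). Without the 2 arrays farthest from the median score r was 0.92, and within the groups it was 0.99 in controls and 0.84 in exposed thyroids (4 arrays each). With the score as a covariate, the difference of this probe was 0.05 (adjusted p = 0.968) in place of -0.62. The score was chosen after the values were seen and itself had a difference of -0.88 between the groups, so this change is a description. Whether muscle in the samples bears on the difference was not tested. The other RefSeq probe of Pde4d had an r of 0.23 with the same score, with 0.70 in controls, 0.39 in exposed thyroids and 0.52 without the 2 farthest arrays. Other members ran the opposite way. For Prkar1a from base 1371 r was -0.89 (exact permutation p = 0.00389, adjusted p = 0.203) and rho -0.90 (exact permutation p = 0.00456, adjusted p = 0.293), with -0.97 in controls, -0.84 in exposed thyroids and -0.79 without the 2 farthest arrays, and with the score as a covariate its difference was 0.095 (adjusted p = 0.855) in place of 0.26. For Gnas from base 3448 r was -0.79 (exact permutation p = 0.0222, adjusted p = 0.316) and rho -0.81 (exact permutation p = 0.0218, adjusted p = 0.493), with -0.78 in controls, -0.88 in exposed thyroids and -0.79 without the 2 farthest arrays. Both probes went as closely with the C cell score. There r was 0.89 for Prkar1a (exact permutation p = 0.00372, adjusted p = 0.203) and 0.80 for Gnas (exact permutation p = 0.0168, adjusted p = 0.281). For these probes the values do not single out the muscle score, and whether muscle in the samples bears on their differences was not tested. Of the other genes of the route, Pkia, an inhibitor peptide of protein kinase A, and Akap6, which anchors the kinase in muscle cells, went with the muscle score with r = 0.97 and 0.96, and Rapgef3 had an r of -0.88.

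**Figure D3:**
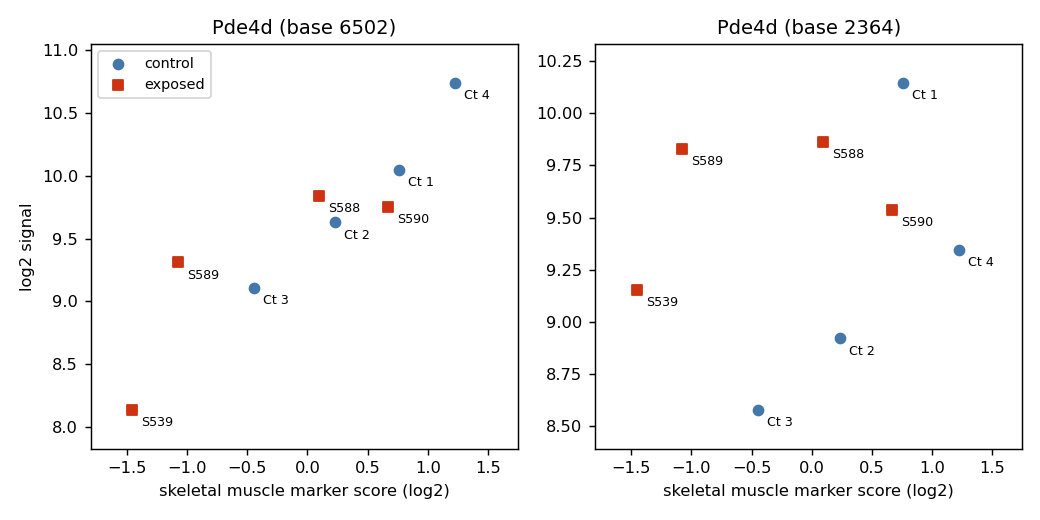
Log2 signal (y axis) of the 2 RefSeq probes of Pde4d against the skeletal muscle marker score of each array (x axis, mean centred log2 signal of 6 markers), with circles for control and squares for exposed thyroids. The left probe rises with the score in both groups (r = 0.91 over 8 arrays), and the right probe follows it less closely (r = 0.23, with 0.70 in controls and 0.39 in exposed thyroids).

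Pde8b had 2 probes. Its probe from base 4127 of NM_001170669 (mm9 chr13:95794492-95794551, minus strand) had log2 signals of 7.05, 7.52, 7.45 and 7.61 on control arrays 1 to 4 and 7.07, 6.08, 7.198 and 6.93 on arrays S539, S588, S589 and S590. S588 was the lowest of all arrays, and of the controls only array 1 lay below the highest exposed array. The means were 7.41 ± 0.25 in control and 6.82 ± 0.51 in exposed thyroids (SD, n = 4 each), with a difference of -0.59 (95% confidence interval -1.21 to 0.04, adjusted p = 0.434) and an exact permutation p of 0.0857, the second lowest unadjusted limma p of the 22 probes (0.0617). That from base 1056 of an Ensembl transcript (mm9 chr13:95855133-95855192, minus strand) had log2 signals of 8.40, 7.24, 8.22 and 7.88 on control arrays 1 to 4 and 7.22, 8.36, 7.28 and 7.50 on arrays S539, S588, S589 and S590. Control array 1 and S588 were the 2 highest, and the difference was -0.35 (95% confidence interval -1.13 to 0.44, adjusted p = 0.701). The 2 probes had the same sign of difference and a correlation over the arrays of -0.36.

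Creb1 encodes the cyclic AMP response element binding protein, the transcription factor at the end of the route. Its 2 RefSeq probes lie in NM_009952. In the first, from base 8359 (mm9 chr1:64651061-64651120, plus strand), the log2 signals were 7.57, 7.77, 7.68 and 7.53 on control arrays 1 to 4 and 8.04, 7.36, 7.50 and 7.70 on arrays S539, S588, S589 and S590. S539 was the highest and S588 the lowest, and the difference was 0.01 (95% confidence interval -0.40 to 0.41, adjusted p = 0.99). In the second, from base 1931 (mm9 chr1:64644633-64644692, plus strand), they were 7.04, 7.19, 7.31 and 7.404 on control arrays 1 to 4 and 7.57, 6.70, 7.47 and 7.36 on arrays S539, S588, S589 and S590. The same 2 exposed arrays marked the ends of the range, and the difference was 0.04 (95% confidence interval -0.46 to 0.54, adjusted p = 0.955). A probe of an Ensembl transcript, from base 261, was well above background on 3 arrays of each group. Its log2 signals ran from 4.71 to 7.81 in controls and from 3.27 to 5.41 in exposed thyroids. It had the largest standard error of the 22 probes and a difference of -1.34 (95% confidence interval -3.02 to 0.34, adjusted p = 0.497).

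The other genes of the route were read by 1 probe each, the RefSeq probe with the highest mean signal. Of 68 such genes, 0 passed the threshold, where 0.904% of 21021 genes with a RefSeq probe were called higher and 0.295% lower. In 3 of them all exposed arrays lay above all controls, and in 2 all lay below, a smaller share than the 11.7% of 21021 genes with groups apart. By group, the genes with the largest difference, where the log2 signal averaged 7 or more, were Gpha2 (-0.13), a subunit of a glycoprotein hormone that can bind the TSH receptor; Adcy8 (1.11), a calcium-stimulated adenylyl cyclase; Gnaq (0.12), the alpha subunit that couples the receptor to phospholipase C; Grk5 (0.69), a receptor kinase; Prkar2a (-0.53), a regulatory subunit; Pkia (-1.44); Akap6 (-1.26); Pde3b (0.88), a phosphodiesterase; Rapgef3 (0.28), the cyclic AMP sensor Epac1; and Crem (0.36), a CREB relative. Their adjusted p ran from 0.231 for Pde3b to 0.861 for Gpha2.

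Grk5 phosphorylates active receptors so that they lose their coupling to the G protein. Its log2 signals were 10.67, 11.26, 11.37 and 10.96 on control arrays 1 to 4 and 12.05, 11.66, 11.86 and 11.45 on arrays S539, S588, S589 and S590. All exposed arrays lay above all control arrays, and the difference was 0.69 (95% confidence interval 0.21 to 1.18, adjusted p = 0.242). Within the groups Grk5 went against the muscle score, with r = -0.76 in controls and -0.98 in exposed thyroids, and with the score as a covariate the difference was 0.44 (adjusted p = 0.434). Whether muscle in the samples bears on the Grk5 difference was not tested. Pde3b, a phosphodiesterase prominent in fat cells, had log2 signals of 10.63, 10.72, 10.67 and 10.76 on control arrays 1 to 4 and 11.20, 11.78, 12.25 and 11.09 on arrays S539, S588, S589 and S590. Again all exposed arrays were above the controls, with a difference of 0.88 (95% confidence interval 0.28 to 1.49, adjusted p = 0.231). The adipocyte score was highest on S589, which was also the array with the highest Pde3b signal. Within the groups r between the score and Pde3b was 0.93 in controls and 0.93 in exposed thyroids, and with the score as a covariate the difference was 0.67 (adjusted p = 0.302). Whether fat in the samples bears on the Pde3b difference was not tested. Adcy7, another adenylyl cyclase, was chosen after its values were seen. It had log2 signals of 10.40, 10.35, 9.87 and 10.43 on control arrays 1 to 4 and 8.97, 9.17, 9.26 and 9.82 on arrays S539, S588, S589 and S590. The exposed arrays all lay below the controls, and the difference of -0.96 (95% confidence interval -1.47 to -0.44, adjusted p = 0.134) did not pass the threshold. Genes of the TSH ligand were dim. Cga, the common alpha subunit made in the pituitary, was well above background on no array, and Tshb on 2 exposed arrays.

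Of 20 genes known to respond to TSH or to cyclic AMP, 3 passed the threshold. Of 21021 genes with a RefSeq probe, 0.904% were called higher and 0.295% lower. The lists were chosen with earlier results of these data known, and the study itself had reported the fall of Slc5a5. The count of 3 is therefore a description and not a test of the lists. Per1 was higher, and Slc5a5 and Dio1 were lower in exposed thyroids. Among the 10 cyclic AMP-responsive immediate genes, 1 rose and 9 did not pass, and among the 10 TSH-responsive thyroid genes, 2 fell and 8 did not pass. The median difference was 0.40 in the first list and -0.34 in the second, beside 0.01 over all probes. Over the 85 genes of the route and its targets together, the groups did not overlap for 11 (6 higher and 5 lower), beside the same 11.7%.

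Slc5a5 encodes the sodium iodide symporter, which brings iodide and pertechnetate into the thyrocyte. Its log2 signals were 10.73, 11.92, 12.34 and 10.87 on control arrays 1 to 4 and 8.17, 8.28, 7.32 and 7.94 on arrays S539, S588, S589 and S590. Every exposed array lay below every control, and the difference was -3.53 (95% confidence interval -4.47 to -2.59, adjusted p = 0.0137). Apart from the arrays, the study reported less Slc5a5 message by quantitative RT-PCR at the same dose and time. It also reported less of the protein by Western blot. Dio1 encodes the type 1 deiodinase, which converts thyroxine to its active form. Its log2 signals were 13.62, 14.39, 14.52 and 13.51 on control arrays 1 to 4 and 11.38, 11.84, 11.10 and 11.84 on arrays S539, S588, S589 and S590, with the groups again apart and a difference of -2.46 (95% confidence interval -3.15 to -1.78, adjusted p = 0.0153). Per1, a circadian clock gene whose promoter responds to cyclic AMP and to glucocorticoids, had log2 signals of 12.21, 10.81, 11.26 and 11.93 on control arrays 1 to 4 and 13.77, 13.69, 13.58 and 13.75 on arrays S539, S588, S589 and S590. The exposed arrays lay close together, from 13.58 to 13.77, all above the controls, and the difference was 2.15 (95% confidence interval 1.45 to 2.84, adjusted p = 0.0258). For each of the 3 genes the exact permutation p was 0.0286, the smallest that 4 arrays against 4 can give. On the arrays, these calls were close to the threshold. Leaving out control array 2, S589 or S590 left 0 of the 3 called, and leaving out S539 left Slc5a5 alone. Per1 stayed past the threshold without control array 1 (adjusted p = 0.0220) and not without any of the others (0.0518 to 0.0923). With the muscle or the adipocyte score as a covariate, or without control arrays 1 and 2, 0 of the 3 were called, and the methods' t-test did not call Per1. Within the groups, r with the thyrocyte score was 0.999 in controls and -0.83 in exposed thyroids for Slc5a5, 0.97 and -0.58 for Dio1, and -0.85 and -0.995 for Per1. Over all 8 left-out arrays the differences ran from -3.78 to -3.24 for Slc5a5, from -2.63 to -2.30 for Dio1 and from 1.90 to 2.36 for Per1.

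**Figure D4:**
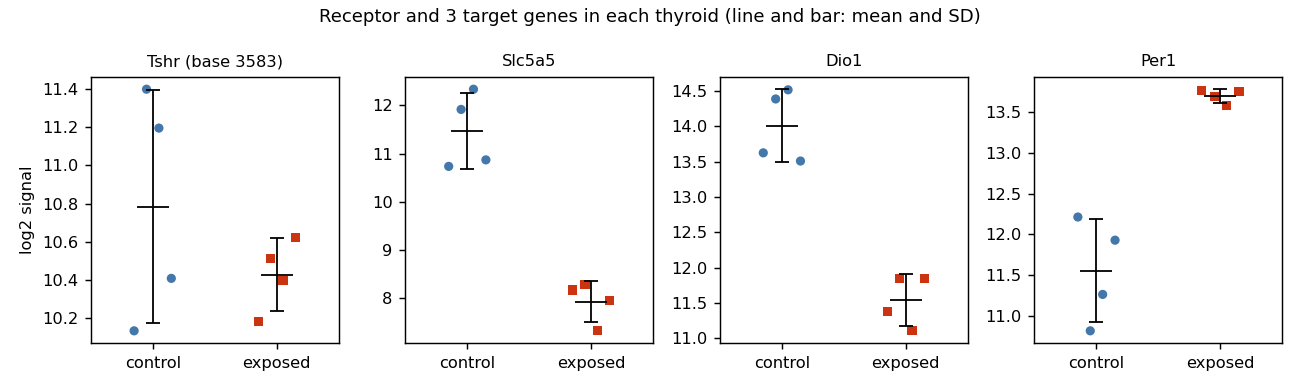
Log2 signal (y axes, each with its own range) of the brighter Tshr probe and of the target genes Slc5a5, Dio1 and Per1 in control (circles) and exposed (squares) thyroids, with the mean and SD of 4 arrays. The Tshr groups overlap, and the groups of the 3 target genes are apart.

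Other targets showed differences that did not pass. Named here after their values were seen, Sik1, a kinase gene induced by cyclic AMP, was higher on all exposed arrays by 1.08 (95% confidence interval 0.61 to 1.54, adjusted p = 0.0702), and Dio2, the type 2 deiodinase, by 1.14 (0.46 to 1.83, adjusted p = 0.173). Among the exposed arrays Dio2 was highest on S589 (12.17) and lowest on S590 (10.89), as was the adipocyte score (0.72 and -0.50). Among controls Dio2 was highest on array 4 and the score on array 2. Whether fat in the samples bears on the Dio2 difference was not tested. Duoxa2, the maturation factor of the enzyme that makes hydrogen peroxide for hormone synthesis, was lower on all exposed arrays, with a difference of -1.05 (-1.56 to -0.54, adjusted p = 0.100). Tg, the thyroglobulin gene, had a difference of 0.04 (95% confidence interval -0.27 to 0.35, adjusted p = 0.922). Its signals lay near the top of the scale, where quantile normalization gives spots of equal rank the same value on every array. Control array 3 and S589, for example, both had 18.88. How far this narrowed the difference and its interval was not tested, so the value does not show that Tg was unchanged. In the limma fit on the deposited log2 values, which carry no background subtraction, Sik1 and Duoxa2 passed the threshold beside Per1, Slc5a5 and Dio1, and 0 member probes did.

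**Figure D5:**
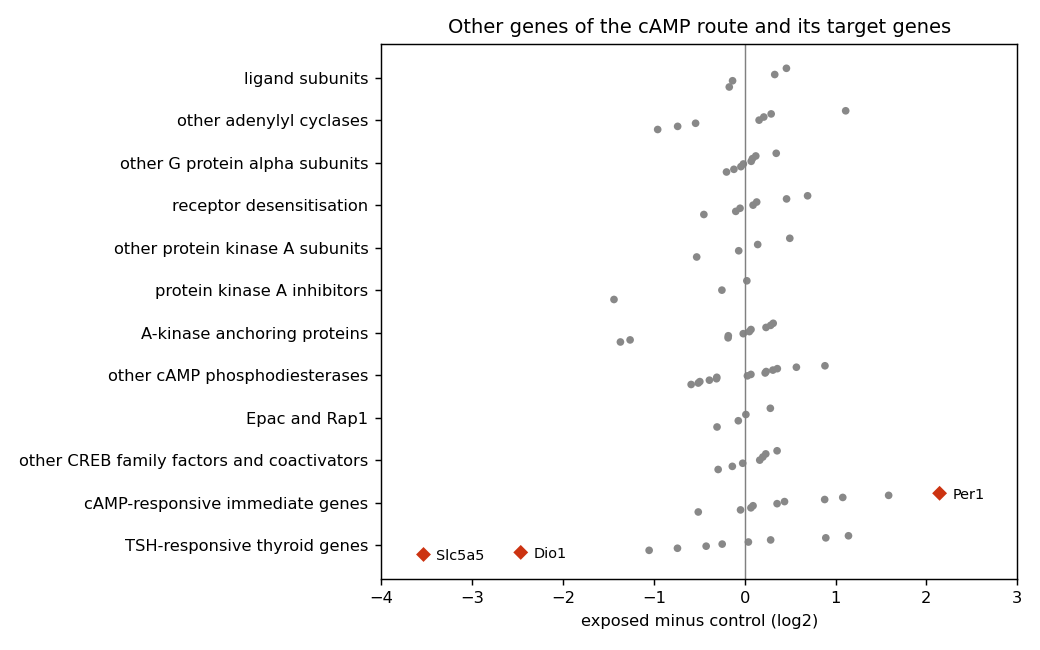
Difference between exposed and control means on the log2 scale (x axis) for 68 other genes of the cyclic AMP route and 20 target genes, by group (y axis, 3 genes stand in both lists), with 1 point per gene. Diamonds mark the 3 genes with an adjusted p under 0.05, Slc5a5 and Dio1 on the lower side and Per1 on the higher.

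The palindromic cyclic AMP response element TGACGTCA, to which CREB binds, was looked for in RefSeq promoter windows of assembly GRCm38.p6 that reach from 250 bases before to 50 bases after a gene start. A palindrome reads the same on both strands. Of the 30 member and target genes, 23 had a window, and 3 of these held the motif: Prkar1a in 2 of its 6 windows, Dusp1 and Dio2. Over all 32851 windows, 1.79% held it. That is a share of windows and not of genes, and a gene with several windows has more chances of a match, so it cannot be set directly beside the count of genes. The 3 sites are shown with the motif in capitals, because they are the member and the targets of the lists for which this match was found. They lie at chr11:109650889-109650918 on the plus strand, 49 bases before the start, chr17:26508597-26508626 on the minus strand, 143 bases before it, and chr12:90739115-90739144 on the minus strand, 95 bases before it.
Prkar1a: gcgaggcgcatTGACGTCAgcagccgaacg
Dusp1: ggtagggcgggTGACGTCAccgcccggtca
Dio2: ctctttctcaaTGACGTCAagatctttagc

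On the arrays, the Prkar1a probe from base 1371 had a difference of 0.26, Dusp1, a phosphatase gene of the immediate response, one of 0.88 (95% confidence interval 0.03 to 1.74, adjusted p = 0.399), and Dio2 one of 1.14, and none of these passed. The 3 called targets Per1, Slc5a5 and Dio1 had windows without this exact motif. A match is a string of letters and not a measured site.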

How the data were processed

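RNA of 8 mouse thyroids (4 control and 4 exposed) was labelled with Cy3 and hybridised to 1 Agilent array each. The authors deposited the scanner output, in which Feature Extraction 10.7.3.1 gives the intensity of each spot with and without background subtraction, and a table of log2 values. Their methods state quantile normalization in limma and an adjusted p of 0.05. The deposited log2 values lay within 0.0378 of quantile-normalized median signals without background subtraction.

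For the values given here, background-subtracted intensities of 59305 spots (values under 1 set to 1) were log2-transformed and quantile-normalized over the 8 arrays. Control spots were left out, and spots of the same probe were averaged (55681 probes). The groups were compared by lmFit and eBayes in limma 3.58.1 (R 4.3.3), with Benjamini-Hochberg adjustment over all probes and a threshold of 0.05. Exact permutation tests were two-sided, over 70 assignments of the arrays for differences and 40320 orders for correlations. The procedure was tested on simulated arrays.

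Groups came from the labels, and dose, time, sex, strain and age from the study's methods and results. Positions of probes are in mm9, as the array files give them. The accessions of the 16 RefSeq probes of the members carried the same symbols in the RefSeq table of GRCm38.p6. Genes that are not members were read by their brightest RefSeq probe. Named genes were all members, pathway and target genes past the threshold, the largest difference in each group where the log2 signal averaged 7 or more, and the 5 genes most correlated with Tshr. The members, gene lists and tests were chosen with earlier results of these data known. Other marker lists (B cell, macrophage, parathyroid, C cell, endothelium, fibroblast and cartilage) had 0 genes past the threshold. For 2 of 6 macrophage and 2 of 4 fibroblast markers all exposed arrays lay below all controls, and for none in the other lists named. Over all genes with a RefSeq probe, the groups were apart for 11.7%.

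Alternatives were the 75th percentile in place of quantiles, normexp with an offset of 50, signals without background correction, the deposited values, leaving out dim probes, leaving out spots with an outlier mark, array weights, a variance trend, the methods' t-test, and leaving out each array. Marker scores as covariates and leaving out control arrays 1 and 2 together were added after seeing the data. The slide could not be used as a block, since there was 1. Some items of the lists are not reported here.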

Additional observations from a re-analysis of the deposited data

Results flagged for a closer look

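In 4 of 92 comparisons of 1 array with the 3 others of its group, the array stood farther from the rest than Dixon's test allows at the 95% level, and chance alone gives about 4.6. For Tshr from base 512, the exposed array S590 had a log2 signal of 6.56, and the other exposed arrays had 6.80 to 6.82. For Adcy9, control array 1 had 12.73, and the other controls had 12.91 to 12.93. For Prkaca, control array 1 had 8.996, and the other controls had 8.54 to 8.58. The thymocyte and T cell score of the exposed array S539 was -0.016, and those of the other exposed arrays were -1.34 to -1.25. Control array 1 also had the highest thymocyte score of all arrays. Over the 8 arrays Pearson's r with that score was 0.68 for Prkaca (exact permutation p = 0.0694, adjusted over 385 relations p = 0.462) and -0.20 for Adcy9 (exact permutation p = 0.595, adjusted p = 0.843), and Spearman's rho was 0.69 (exact permutation p = 0.0694, adjusted p = 0.504) and -0.05 (exact permutation p = 0.935, adjusted p = 1.00). Without the 2 arrays farthest from the median score r was 0.44 and -0.10. With the score as a covariate the differences were 0.082 and -0.094.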

How the results depend on the processing

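In 0 of the settings tried did a member probe pass the threshold (lowest adjusted p 0.0876 over 460 values), and the sign of 59 of these values differed from that reported. Scaled to the 75th percentile, where the median of all probes was 0.16, the differences were 0.012 for Tshr from base 512, 0.12 for Gnas from base 1999, 0.0096 for Adcy6, 0.040 for Prkaca, 0.25 for Pde4d from base 73 and 0.10 for Gpha2, and 1 member probe, Gnas from base 2122, had groups apart (9.97% of all probes). With array weights they were -0.030 for Gnas from base 3448, -0.13 for Gnas from base 1561, 0.017 for Prkaca and -0.035 for Creb1 from base 8359. With normexp they were -0.013 for Gnas from base 1561, 0.028 for Adcy3 and -0.0043 for Creb1 from base 8359. Without background correction they were 0.075 for Adcy3, -0.060 for Pde4d from base 4008 and -0.013 for Creb1 from base 8359, and on the deposited values 0.076, -0.060 and -0.013. With the muscle score as a covariate they were -0.085 and -0.26 for Gnas from bases 3448 and 1561, 0.051 for Pde4d from base 6502, and -0.10 and -0.084 for Creb1 from bases 8359 and 1931. With the adipocyte score they were 0.0014 for Prkaca and -0.039 for Prkar1a from base 888. With the thymocyte score they were 0.45 for Gnas from base 1999, 0.050 for Adcy6, 0.082 for Prkaca, -0.23 for Prkar1a from base 888 and -0.031 for Creb1 from base 1931. Without control arrays 1 and 2 they were 0.67, 0.035, 0.087, -0.35 and -0.083 for the same 5 probes, and 6 member probes had groups apart, beside 27.1% of all probes. The causes of these changes of sign were not tested.

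Leaving out 1 array at a time, the differences ran from -0.0078 to 0.18 for Gnas from base 3448, -0.11 to 0.18 from base 1561, -0.52 to 0.19 from base 1999, -0.091 to 0.058 for Adcy6, -0.076 to 0.076 for Prkaca, -0.13 to 0.33 for Prkar1a from base 888, -0.22 to 0.21 for Pde4d from base 73, -0.055 to 0.52 from base 4008, -0.12 to 0.10 for Creb1 from base 8359, -0.060 to 0.23 from base 1931 and -0.34 to 0.021 for Gpha2. Member probes with groups apart numbered 0 to 3, with 3 without control array 1 (Adcy9, Pde8b from base 4127 and Creb1 from base 261, beside 19.3% of all probes) and 1 without control array 2 (Gnas from base 2122, beside 11% of all probes).

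Of the pathway and target genes, 0 to 4 were called with 1 array left out, as named above, with Sik1 the fourth without control array 1. No background correction, the deposited values, a variance trend and array weights each called 5 (Sik1 and Duoxa2 beside the 3). The thymocyte covariate left 1 (Slc5a5), and the muscle covariate, the adipocyte covariate and the fit without control arrays 1 and 2 left 0, with adjusted p from 0.0506 to 0.110 for Slc5a5, Dio1 and Per1. The methods' t-test called 2, not Per1. Over all probes, 435 were called, 100 to 481 with 1 array left out, 962 without background correction, 955 on the deposited values, 856 with normexp, 959 with array weights, 744 with a variance trend and 289 by the methods' t-test, and 71, 159 and 199 with the muscle, adipocyte and thymocyte covariates and 89 without control arrays 1 and 2. No paired analysis was possible because the groups share no replicate numbers. Signal over background limits the Gnas probe from base 2122, which has only a bound in controls.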
